A study of Mus musculus with 24 samples.

Results

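Collagen genes were taken as every row of the 5 deposited tables named Col, a number, a and a number. The rule found 25 genes among the 13162 listed in any table, and 24 of the 25 stood in all 5 tables. Col6a6 was not listed in the 2 tables that hold the KO group at 24 h of recovery. The reference annotation names 44 such genes, and the other 19 were not listed, among them Col2a1 and Col10a1, collagens of cartilage, and the type IV chains Col4a3, Col4a4 and Col4a6. A table lists a gene where the higher of its groups has a mean of at least 0.5 RPKM (reads per kilobase of gene length, scaled to the library's counted reads). The 25 genes comprised 8 fibrillar, 3 type IV, 4 type VI, 4 FACIT, 2 multiplexin and 2 transmembrane collagens, the network-forming Col8a1, and Col28a1.

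RNA came from interscapular brown fat of male mice aged 10 to 12 weeks on a C57BL/6J background, collected at ZT10. KO mice carried floxed HDAC3 alleles and Cre under control of the Ucp1 promoter, which is active in brown adipocytes, so the gene stays intact in other cells of the pad. Control mice carried the floxed alleles, and no Cre is named for them. Mice of both genotypes stayed at 22 °C, or spent 24 h at 15 °C and were then kept at 22 °C for 24 h or for 7 d. Each of the 6 groups (KO and Control, each housed at 22 °C or given 24 h or 7 d of recovery) had 4 libraries, described as biological replicates. The labels do not tie each library to a mouse, so p-values measure the spread between these libraries.

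A collagen is made of chains wound around each other into a helix, and each chain has its own gene. Fibrillar collagens (types I, III, V, XI and XXVII) assemble into the fibrils that carry tension, and FACIT collagens sit on the surface of those fibrils. Type IV collagen forms the sheet-like network of basement membranes, which surround every adipocyte and capillary, with multiplexins in the same zone. Type VI collagen builds beaded filaments and is abundant around adipocytes. In fat depots most fibrillar collagen is made by fibroblast-like stromal cells.

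The deposited tables give group means, and reads per library were rebuilt from those means for 128 of 149 collagen values. Col3a1 and Col4a1, the most abundant members, have group means only. The 4 libraries of a group are called A to D by falling depth, since they could not be matched to the replicate numbers of the labels. Depth, inferred from the same means, ran from 4637903 to 12538811 counted reads a library. Hdac3 had 8.57, 6.43 and 7.43 RPKM in KO mice at 22 °C, 24 h and 7 d, against 26.1, 27.1 and 25.4 RPKM in Control mice. The highest KO library, at 9.0 RPKM, lay below the lowest Control library, at 23.4 RPKM. RPKM values leave out the authors' normalization factors: the log2 ratio of means lay below the deposited log2 fold change by a median of 0.238 (KO against Control at 22 °C) and 0.140 (24 h), and the 2 differed by a median of less than 0.1 in the other tables. Directions below are those of the deposited fold changes.

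**Figure D1:**
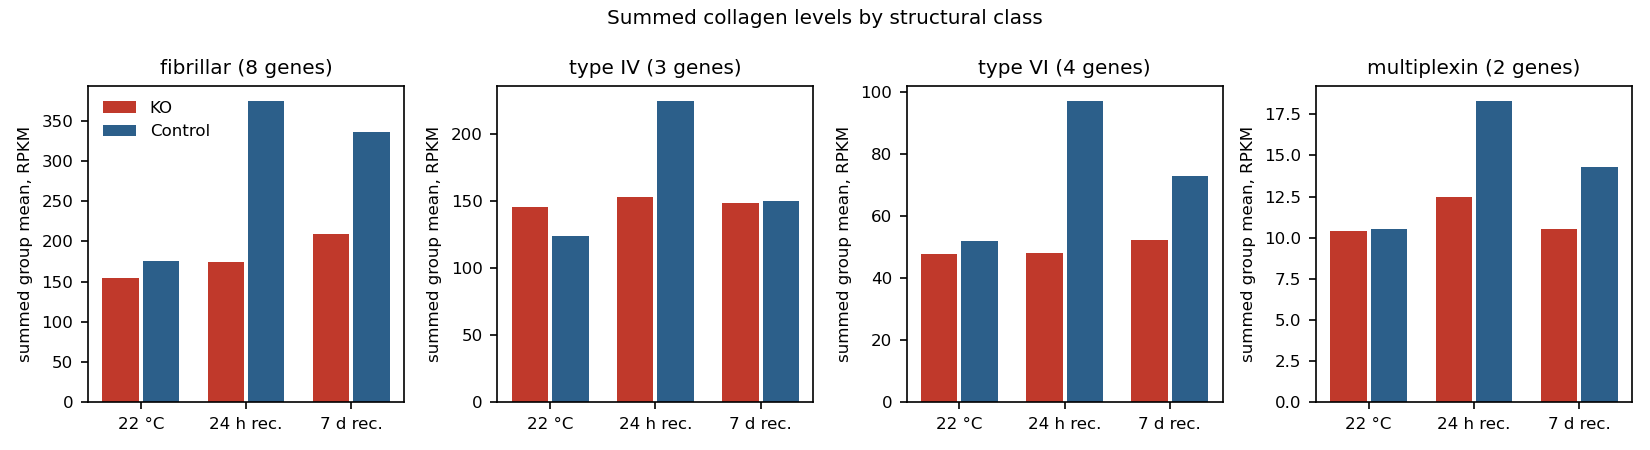
Summed group means of the collagen genes in RPKM by structural class, with KO (red) left of Control (blue) at 22 °C, 24 h and 7 d of recovery. The bars carry no error because the most abundant genes have group means only. The fibrillar sum was 175 RPKM in KO mice and 374 RPKM in Control mice at 24 h of recovery.

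At 22 °C collagen transcripts summed to 368 RPKM in KO mice and 376 RPKM in Control mice. Col1a1, Col1a2, Col3a1, Col4a1 and Col4a2 made up 74.3% of that sum in KO mice and 71.9% in Control mice. Col3a1, the chain of type III collagen, was the highest fibrillar gene in both genotypes at 22 °C, with 83.6 RPKM in KO mice and 99.7 RPKM in Control mice. The type IV chain Col4a1 had 91.9 RPKM in KO mice and 77.3 RPKM in Control mice. Type IV genes held 39.4% of the collagen sum in KO mice and 33.0% in Control mice, and fibrillar genes held 42.0% and 46.8% of it in KO and Control mice. Members at the low end were Col11a2, at 0.243 RPKM in KO mice and 0.534 RPKM in Control mice, and Col6a6, at 0.393 RPKM in KO mice and 0.753 RPKM in Control mice.

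Promoters of 4 members are shown because Col1a2 and Col3a1 encode chains of the main fibrils, while Col27a1 and Col4a5 differed between the genotypes at every time. Each is the 250 bases before the RefSeq start on build GRCm38.p6, all on the plus strand, at chr6:4505368-4505617, chr1:45311288-45311537, chr4:63215162-63215411 and chrX:141475169-141475418 in the order below. Capitals mark the CCAAT box, the TATA box letters TATAAA and the GC box letters GGGCGG, each searched on both strands.
Col1a2: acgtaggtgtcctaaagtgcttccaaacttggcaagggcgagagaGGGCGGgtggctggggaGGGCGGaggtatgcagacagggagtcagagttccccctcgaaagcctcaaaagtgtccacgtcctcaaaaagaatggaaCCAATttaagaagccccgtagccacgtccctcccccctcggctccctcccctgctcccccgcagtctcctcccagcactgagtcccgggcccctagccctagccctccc
Col3a1: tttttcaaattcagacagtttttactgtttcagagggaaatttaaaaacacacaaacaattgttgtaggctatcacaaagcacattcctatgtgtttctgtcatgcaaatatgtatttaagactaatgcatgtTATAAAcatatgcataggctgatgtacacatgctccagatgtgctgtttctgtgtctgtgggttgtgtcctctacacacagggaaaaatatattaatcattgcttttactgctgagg
Col27a1: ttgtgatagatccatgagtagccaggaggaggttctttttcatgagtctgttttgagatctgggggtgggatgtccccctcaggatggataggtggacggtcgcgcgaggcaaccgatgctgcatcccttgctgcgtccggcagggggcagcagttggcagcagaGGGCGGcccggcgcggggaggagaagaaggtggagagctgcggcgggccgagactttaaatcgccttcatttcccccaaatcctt
Col4a5: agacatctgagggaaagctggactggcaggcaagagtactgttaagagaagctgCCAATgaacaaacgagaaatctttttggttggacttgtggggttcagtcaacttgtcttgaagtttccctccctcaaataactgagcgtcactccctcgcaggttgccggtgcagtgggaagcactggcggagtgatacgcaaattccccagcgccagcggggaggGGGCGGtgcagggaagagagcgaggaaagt

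The window of Col1a2 held GGGCGG starting 205 and 188 bases before the start and CCAAT at 109 bases. Col3a1 held TATAAA at 117 bases, Col27a1 held GGGCGG at 85 bases, and Col4a5 held CCAAT at 196 bases and GGGCGG at 30 bases. Of the 25 members, 21 had a promoter in the table, and 13 of them (61.9%) held GGGCGG, against 32.7% of the 32851 promoters of the same length. A member counted if any of its promoters held the letters, while the share over all counts each promoter once, so the measures differ. CCAAT stood in 7 of the 21 (33.3%), against 33.8% of all, and TATAAA in 3 (14.3%), against 12.4% of all. Col4a1 and Col4a2, neighbours on chromosome 8 read from opposite strands, have RefSeq starts 21 bases apart, and the genes overlap between these starts.

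At 22 °C the genotypes differed in a small set of collagens, while the chains of types I, III and VI did not pass the test. By the authors' edgeR test 4 of 25 collagens were higher in KO mice and 4 were lower, at an adjusted p under 0.05. Of all 12710 genes tested, 16.3% were higher and 18% were lower, close to the shares among the collagens. In this bulk tissue, fewer cells of a type and less RNA per cell cannot be told apart.

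Col27a1, a fibrillar chain best known from cartilage, had 0.427, 0.453, 0.386 and 0.695 RPKM in the KO libraries and 3.83, 5.17, 5.32 and 4.75 RPKM in the Control libraries at 22 °C. Every KO library lay below every Control library. Its deposited log2 fold change was -3.05, which is 8.29-fold lower in KO mice, with an edgeR adjusted p of 1.7e-18. Col12a1, a FACIT collagen that binds type I fibrils, had 1.18, 1.08, 0.894 and 1.24 RPKM in KO libraries, against 4.84, 5.37, 2.86 and 5.76 RPKM in Control libraries. It was 3.60-fold lower in KO mice by edgeR, with an adjusted p of 5.6e-12, and the groups did not overlap. Col4a5, a type IV chain mutated in Alport kidney disease, had 0.251, 0.372, 0.269 and 0.418 RPKM in KO libraries, against 2.14, 1.95, 1.83 and 1.70 RPKM in Control libraries. It was 4.96-fold lower in KO mice by edgeR, with an adjusted p of 6.7e-25, and its groups were far apart. Col11a2, another fibrillar chain, was 1.86-fold lower in KO mice (edgeR adjusted p = 0.038). By limma on the rebuilt reads its adjusted p was 0.0164, and it reached 0.0857 without KO library B.

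The opposite direction was seen in 4 members. Col5a3, a type V chain, had 10.1, 14.8, 14.4 and 11.7 RPKM in KO libraries and 8.01, 8.21, 4.78 and 5.65 RPKM in Control libraries. The groups did not overlap, and Col5a3 was 2.26-fold higher in KO mice by edgeR (adjusted p = 0.00053). Its partner Col5a1 averaged 5.35 ± 0.399 RPKM in KO mice and 5.77 ± 1.21 RPKM in Control mice (SD, n = 4 each) and did not pass the edgeR test (adjusted p = 0.72). The ratio of Col5a3 to Col5a1 ran from 2.11 to 2.71 over the KO libraries and from 1.04 to 1.25 over the Control libraries. Col20a1, a FACIT collagen, had 2.96, 1.35, 2.01 and 4.14 RPKM in KO libraries, against 0.893, 1.33, 0.800 and 1.07 RPKM in Control libraries. It was 3.02-fold higher in KO mice by edgeR (adjusted p = 2.2e-06), although the lowest KO library barely exceeded the highest Control library. Col4a1 and Col4a2, the chains of the ubiquitous type IV network, were 1.40-fold and 1.39-fold higher in KO mice (edgeR adjusted p = 0.015 and 0.013). Among members with rebuilt libraries, 2 of 21 were higher in KO mice without overlap and 6 were lower, where 17% and 17.4% of all genes were.

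**Figure D2:**
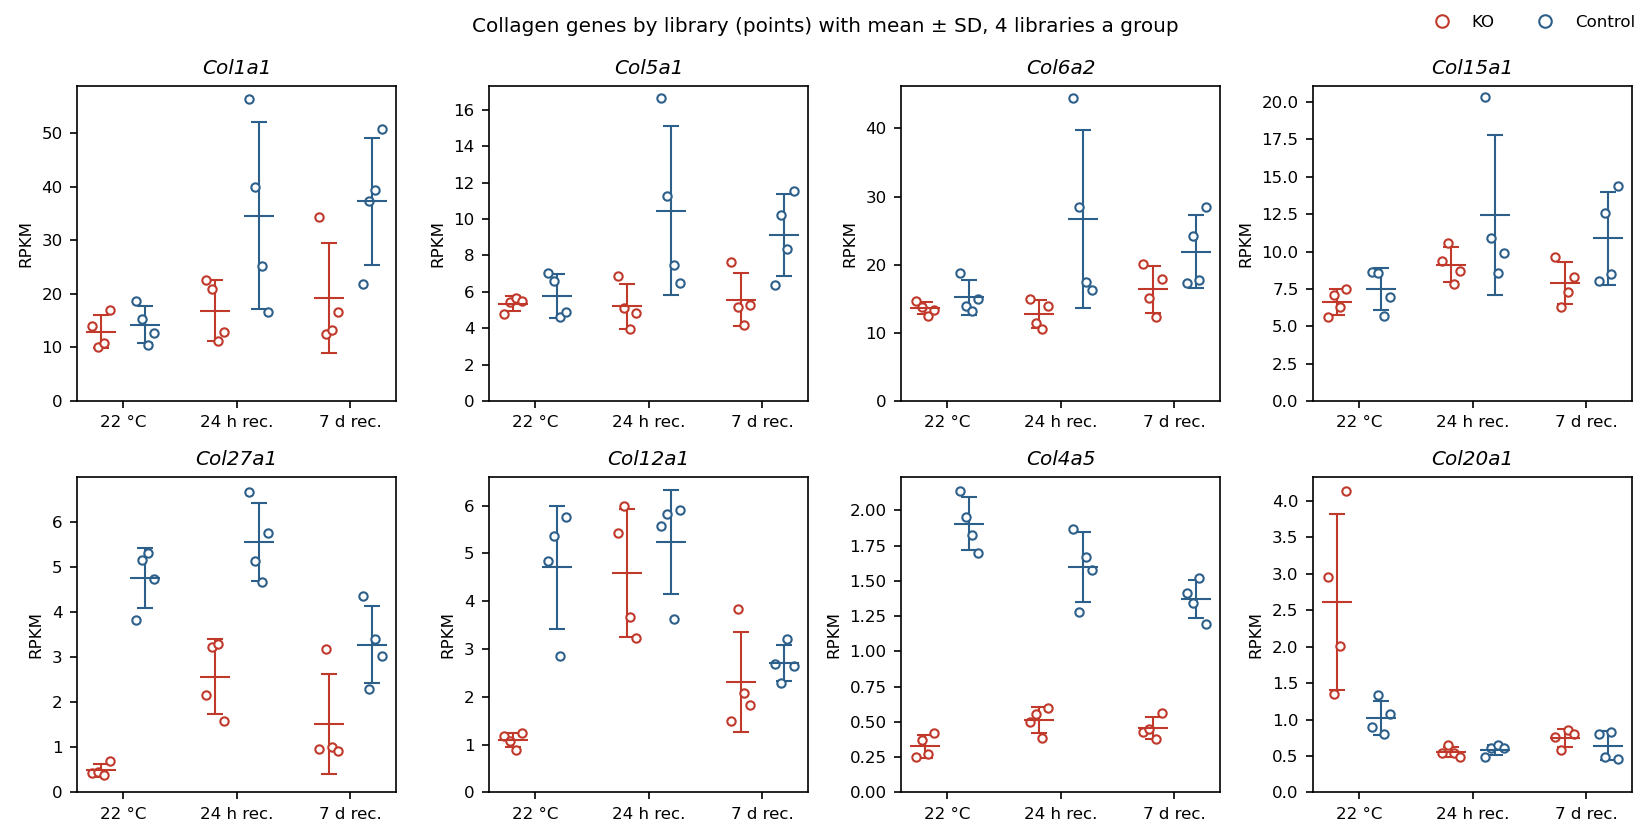
RPKM of 8 collagen genes in each library (points, A to D from left to right) with mean ± SD of 4 libraries, KO (red) left of Control (blue) at 22 °C, 24 h and 7 d of recovery. KO libraries of Col27a1, Col12a1 and Col4a5 lie below all Control libraries at 22 °C, and Control libraries of Col1a1, Col5a1 and Col6a2 spread widely at 24 h of recovery.

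After the cold day and 24 h back at 22 °C, Control fat held more transcript of most abundant collagens. By the authors' edgeR test 14 of 25 collagens were higher at 24 h of recovery than at 22 °C in Control mice and 1 was lower. Over all 12830 genes of that table, 13.1% were higher and 8.67% were lower, and the median log2 fold change was 0.78 for the collagens and 0.01 for all genes. The 14 took in 5 of the 8 fibrillar genes, 2 of 3 type IV genes, 3 of 4 type VI genes, 2 of 4 FACIT genes and both multiplexins.

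The type I chain Col1a1 had 56.4, 39.9, 25.3 and 16.6 RPKM in Control libraries at 24 h of recovery, against 18.6, 15.3, 10.4 and 12.7 RPKM in Control libraries at 22 °C. Libraries A and B of the recovery group were far above the 22 °C range, C was above it, and D lay within it. Col1a1 was 2.50-fold higher by edgeR (adjusted p = 0.00055). Its partner Col1a2 averaged 79.4 RPKM in Control mice at 24 h and 34.4 RPKM in Control mice at 22 °C, 2.38-fold higher by edgeR (adjusted p = 0.00012). Col3a1 averaged 213 RPKM in Control mice at 24 h, against 99.7 RPKM in Control mice at 22 °C, 2.21-fold higher by edgeR (adjusted p = 0.00047). The type V chains Col5a1 and Col5a2, which limit the width of fibrils, were 1.87-fold and 2.13-fold higher (edgeR adjusted p = 0.00084 and 0.00075).

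Col4a1 averaged 151 RPKM in Control mice at 24 h of recovery and 77.3 RPKM in Control mice at 22 °C. It was 2.01-fold higher and had the smallest adjusted p of the collagens in this comparison, 2.8e-07 by edgeR. Col4a2 was 1.66-fold higher (edgeR adjusted p = 0.00017), and Col4a5 did not pass the test (adjusted p = 0.50). Col6a1 had 64.7, 41.2, 23.3 and 21.4 RPKM in Control libraries at 24 h, against 27.1, 20.4, 16.3 and 18.4 RPKM in Control libraries at 22 °C. Libraries C and D fell within the 22 °C range. Col6a1, Col6a2 and Col6a3, the main chains of type VI collagen, were between 1.81-fold and 2.13-fold higher by edgeR, while Col6a6, an alternative type VI chain, was 1.77-fold lower (adjusted p = 0.04). The FACIT members Col14a1 and Col16a1 were 2.46-fold and 1.90-fold higher by edgeR (adjusted p = 0.0016 and 0.017). The multiplexin Col18a1, the source of endostatin, was 1.94-fold higher, and Col15a1 was 1.72-fold higher (edgeR adjusted p = 0.0015 and 0.0017). After scaling with library factors, 5 of the 20 members with rebuilt libraries were higher without overlap and 2 were lower, where 11.6% and 10.5% of all genes were. On RPKM by library totals, 0 of the 20 were higher without overlap and 1 was lower.

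The 4 Control libraries at 24 h of recovery differed widely in their collagens, and library A, the deepest, held the highest value of 17 of the 20 rebuilt collagens and the lowest value of 1. Library D held the lowest value of 12. Among all genes with a mean of at least 20 reads in that group, A was highest for 55.1% and D was lowest for 37.5%. The median collagen differed 2.65-fold between its highest and lowest library, and the median of all those genes differed 1.37-fold. The 6 fibrillar genes with rebuilt reads in all libraries summed to 132, 90.4, 60.0 and 45.0 RPKM in libraries A to D. In the same libraries 6 macrophage markers (Emr1, Cd68, Csf1r, Mrc1, Lgals3 and Trem2) summed to 166, 104, 29.1 and 30.3 RPKM, against 30.1, 27.0, 20.1 and 23.6 RPKM in Control libraries at 22 °C. All 6 were higher at 24 h of recovery by edgeR, Lgals3 by 10.8-fold (adjusted p = 2.3e-07). The 10 fibroblast markers summed to 255, 195, 170 and 115 RPKM in Control libraries A to D at 24 h of recovery and to 241, 205, 143 and 161 RPKM in Control libraries at 22 °C. Of these, Thy1 was higher by edgeR (2.04-fold, adjusted p = 0.011), and the other 9 did not pass the test. The part of library makeup in the collagen values was not tested.

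By limma on the rebuilt reads, 9 of 20 collagens were higher in Control mice at 24 h of recovery than at 22 °C and 1 was lower, where 13.7% and 10.7% of all genes were. Without library A of the recovery group, 7 were higher and 2 were lower. Without both A and B, a setting chosen after their marker sums were seen, 0 were higher and 1, Col28a1, was lower. Over all genes, limma called 1694 higher and 1319 lower with all libraries, 1482 and 1077 without A, and 1150 and 691 without both A and B. Col1a1 then had a limma log2 difference of 0.70 ± 0.36 (SE, adjusted p = 0.208), against 1.23 ± 0.32 with all libraries (adjusted p = 0.00762). Col1a2, Col3a1, Col4a1, Col4a2 and Col6a3 have no library values in this group, so they could not be refitted.

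**Figure D3:**
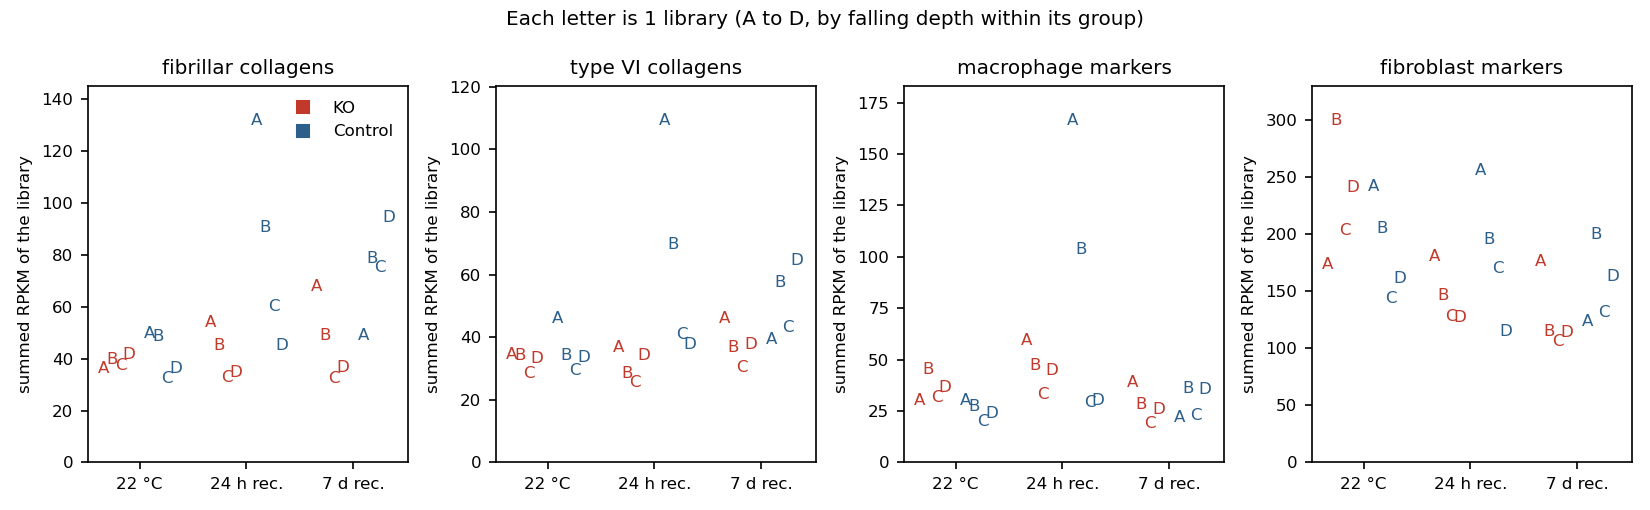
Summed RPKM in each library (letters A to D, by falling depth within a group) of 6 fibrillar collagens, 2 type VI collagens, 6 macrophage markers and 10 fibroblast markers, with KO (red) left of Control (blue) at 22 °C, 24 h and 7 d of recovery. Control libraries A and B at 24 h are high in both collagen panels and in the macrophage panel.

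In KO fat Col27a1 and Col12a1 rose and Col20a1 fell over the same 24 h of recovery. By the authors' edgeR test 5 of 24 collagens were higher in KO mice at 24 h than at 22 °C and 4 were lower, where 22.1% and 19.8% of all 12577 genes were. The higher genes were Col27a1, Col12a1, Col11a2, Col13a1 and Col4a5, and the lower genes were Col20a1, Col23a1, Col28a1 and Col5a3. None of the chains of type I, III or VI collagen passed the test, nor did Col4a1 and Col4a2.

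Col12a1 had 5.43, 6.00, 3.66 and 3.24 RPKM in KO libraries at 24 h of recovery, against 1.18, 1.08, 0.894 and 1.24 RPKM in KO libraries at 22 °C. Every recovery library was above every 22 °C library, and Col12a1 was 4.06-fold higher by edgeR (adjusted p = 3.3e-14). Col27a1 had 2.15, 3.23, 3.30 and 1.60 RPKM in KO libraries at 24 h, against 0.427, 0.453, 0.386 and 0.695 RPKM in KO libraries at 22 °C. It was 5.12-fold higher by edgeR (adjusted p = 1.1e-11), again without overlap. Col11a2 was 2.35-fold higher, Col13a1, a transmembrane collagen, was 1.68-fold higher, and Col4a5 was 1.53-fold higher (edgeR adjusted p = 0.0015, 0.043 and 0.045).

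Col20a1 had 0.538, 0.654, 0.538 and 0.485 RPKM in KO libraries at 24 h, against 2.96, 1.35, 2.01 and 4.14 RPKM in KO libraries at 22 °C. The groups did not overlap, and Col20a1 was 4.81-fold lower by edgeR (adjusted p = 3.2e-11). The transmembrane Col23a1 was 2.31-fold lower and Col28a1 was 2.20-fold lower (edgeR adjusted p = 2e-05 and 0.011). Col5a3 was 1.65-fold lower by edgeR (adjusted p = 0.04), and limma on the rebuilt reads did not call it. Scaled with library factors, 5 of 20 members were higher and 4 were lower without overlap, where 21.8% and 19.7% of all genes were. Macrophage markers summed to 46.0 ± 10.8 RPKM in KO mice at 24 h and 35.8 ± 6.78 RPKM in KO mice at 22 °C (SD, n = 4 each), and 0 of 6 passed the edgeR test. Brown adipocyte markers (Ucp1 among them) summed to 5254 RPKM in KO mice at 24 h and 477 RPKM in KO mice at 22 °C, and 4 of 5 were higher by edgeR. The part of these marker changes in the collagen values was not tested.

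**Figure D4:**
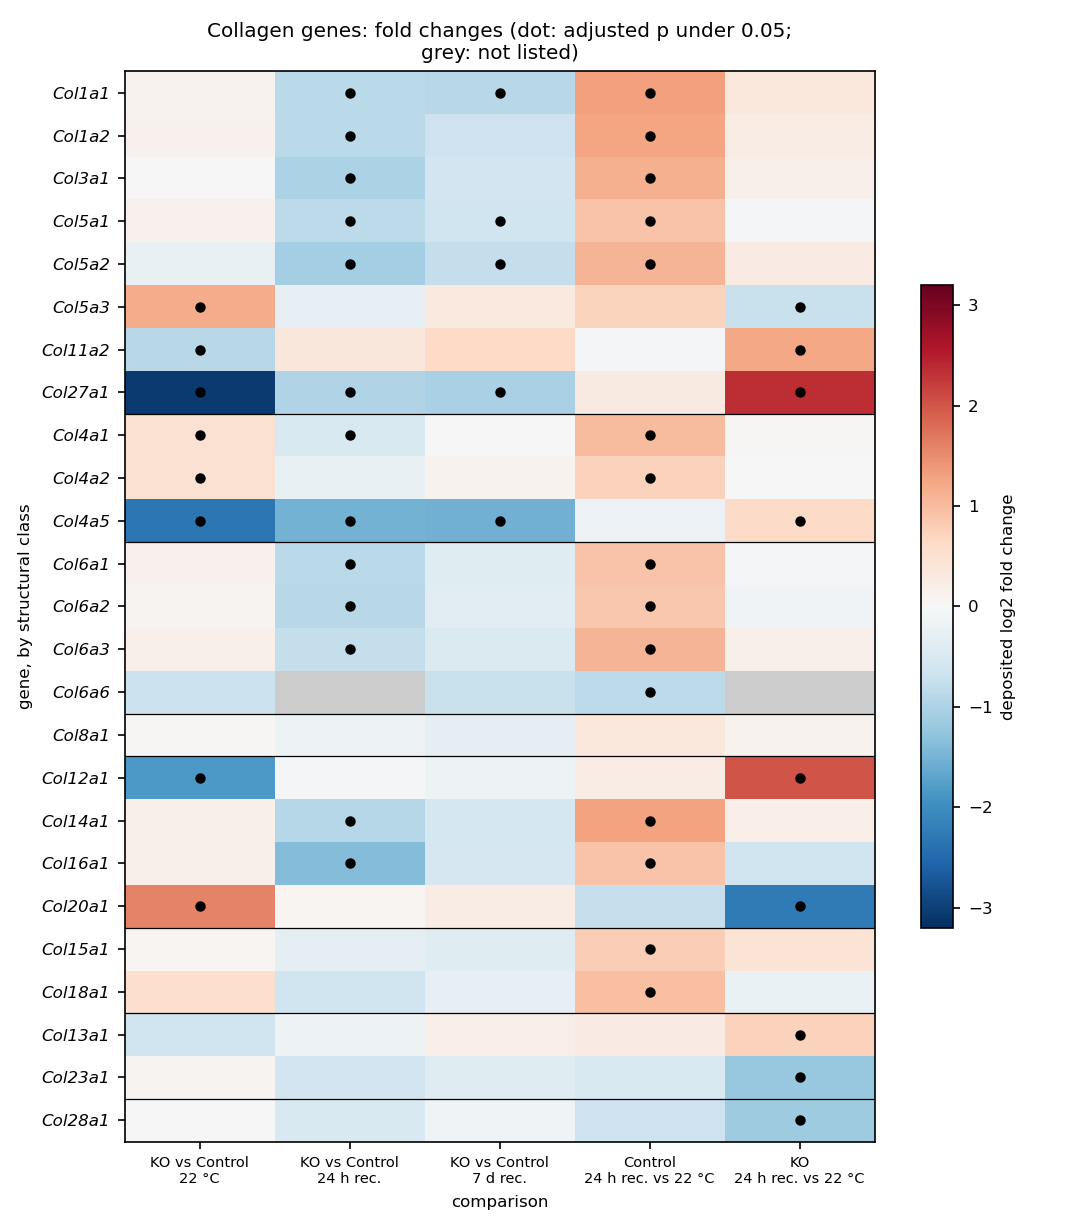
Deposited log2 fold changes (colour, red for higher) of the 25 collagen genes (rows, grouped by class) in the 5 comparisons (columns), with a dot where the authors' adjusted p is under 0.05 and grey where the gene is not listed. Dots in the Control recovery column fall mostly on fibrillar, type IV and type VI genes, and those in the KO recovery column fall on Col27a1, Col12a1, Col20a1 and 6 others.

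The change over recovery was then compared between the genotypes by subtracting the deposited log2 fold changes, with errors rebuilt from the authors' p-values. Genes with an authors' p over 0.9 in either comparison were left out. All of the 25 collagens entered except Col11a2, left out for this reason, and Col6a6, which was not listed. By limma on the rebuilt reads the 24 h change of Col11a2 was higher in KO mice, by 1.32 ± 0.42 (SE, adjusted p = 0.0306). It passed in 10 of the 16 limma fits that left out 1 library. In 11 collagens the 24 h change was lower in KO mice than in Control mice and in 2 it was higher, where 6.96% and 10.6% of all 10923 genes were. The higher count was near its background. Col12a1 changed by 2.02 in KO mice and 0.23 in Control mice on the log2 scale, a difference of 1.79 ± 0.35 (SE, adjusted p = 8.3e-06). Col27a1 changed by 2.35 in KO mice and 0.28 in Control mice, a log2 difference of 2.08 ± 0.44 (adjusted p = 5.2e-05). Among the 11, Col4a1 had a log2 change of 0.04 in KO mice and 1.01 in Control mice, a difference of -0.97 ± 0.24 (adjusted p = 0.00092). Col5a1, Col1a2, Col4a2, Col6a1, Col6a2, Col6a3, Col16a1, Col18a1, Col5a3 and Col20a1 were the other 10. Col1a1 missed the threshold with a log2 difference of -0.98 ± 0.45 (adjusted p = 0.12), as did Col3a1 with -0.99 ± 0.38 (adjusted p = 0.053). By limma on the rebuilt reads the counts were 7 lower and 4 higher, where 7.24% and 10.5% of all genes were. Without Control libraries A and B at 24 h they were 1 lower, Col20a1, and 2 higher, Col12a1 and Col27a1. In that fit 661 of all 11913 genes were lower and 930 were higher. Col1a2, Col3a1, Col4a1, Col4a2 and Col6a3 have no library values in Control mice at 24 h, so they could not be refitted. Leaving out 1 library gave between 2 and 9 lower, with 2 lower without Control library A or B at 24 h, 3 without Control library C or D at 22 °C, and 4 without KO library B or D at 22 °C or B, C or D at 24 h. The higher count ran from 2, without Control library B at 24 h, to 4, and library totals in place of factors gave 2 lower and 4 higher.

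At 24 h of recovery collagen transcripts summed to 399 RPKM in KO mice and 730 RPKM in Control mice. By the authors' edgeR test 13 of 24 collagens were lower in KO mice and 0 were higher, where 7.96% and 10.5% of all 12657 genes were. At an unadjusted p under 0.05, 0 collagens were higher by edgeR and 0 by limma. The 13 took in 6 of 8 fibrillar genes, Col4a1 and Col4a5, 3 of 3 listed type VI genes, and the FACIT members Col14a1 and Col16a1. In the limma fit Col14a1 was not called (adjusted p = 0.13, and 0.328 without Control library A). The fibrillar sum was 175 RPKM in KO mice and 374 RPKM in Control mice, and the type IV sum was 153 RPKM in KO mice and 224 RPKM in Control mice.

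Col4a5 had 0.502, 0.557, 0.388 and 0.602 RPKM in KO libraries at 24 h, against 1.87, 1.28, 1.67 and 1.58 RPKM in Control libraries. The groups did not overlap, and Col4a5 was 2.83-fold lower in KO mice by edgeR (adjusted p = 1.6e-11). Col16a1 had 0.545, 0.274, 0.433 and 0.450 RPKM in KO libraries, against 1.53, 1.36, 1.33 and 0.767 RPKM in Control libraries, again without overlap, and was 2.63-fold lower by edgeR (adjusted p = 0.00021). Col27a1 was 1.96-fold lower in KO mice by edgeR (adjusted p = 0.01), with KO libraries up to 3.30 RPKM and Control libraries from 4.68 RPKM. Col1a1 had 22.5, 20.9, 11.2 and 12.9 RPKM in KO libraries and 56.4, 39.9, 25.3 and 16.6 RPKM in Control libraries. Its groups overlapped at Control library D, and it was 1.83-fold lower in KO mice by edgeR (adjusted p = 0.037), a call that limma on the rebuilt reads did not make (adjusted p = 0.0861). Col3a1 averaged 94.7 RPKM in KO mice and 213 RPKM in Control mice, 2.0-fold lower by edgeR (adjusted p = 0.0029). Col12a1, lower in KO mice at 22 °C, averaged 4.58 ± 1.34 RPKM in KO mice and 5.24 ± 1.08 RPKM in Control mice (SD, n = 4 each) and did not pass the test (edgeR adjusted p = 0.95).

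By limma on the rebuilt reads 8 of 19 collagens were lower in KO mice at 24 h and 0 were higher, where 9.05% and 11.6% of all genes were. Without Control library A, 4 were lower, and without Control libraries A and B, 2 were lower, Col4a5 and Col16a1. Of all 12191 genes, 1083 were lower without A and 842 were lower without both A and B. Col27a1 then had a limma log2 difference of -1.0 ± 0.38 (SE, adjusted p = 0.0762). Without overlap, 4 of 19 were lower in KO mice and 0 were higher, where 9.45% and 11.9% of all genes were.

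At 7 d of recovery the fibrillar sum was 209 RPKM in KO mice and 336 RPKM in Control mice, while the type IV sum was 148 RPKM in KO mice and 150 RPKM in Control mice. By the authors' edgeR test 5 of 25 collagens were lower in KO mice and 0 were higher, where 6.14% and 9.18% of all 12467 genes were. At an unadjusted p under 0.05, 0 were higher by edgeR and 0 by limma. The 5 were the fibrillar chains Col1a1, Col5a1, Col5a2 and Col27a1, and Col4a5. Col1a1 had 34.4, 12.5, 13.3 and 16.7 RPKM in KO libraries and 21.9, 37.3, 39.4 and 50.7 RPKM in Control libraries. KO library A lay inside the Control range, and Col1a1 was 1.86-fold lower in KO mice by edgeR (adjusted p = 0.035). Col4a5 had 0.430, 0.453, 0.381 and 0.563 RPKM in KO libraries, against 1.41, 1.35, 1.52 and 1.20 RPKM in Control libraries. Its groups did not overlap, and it was 2.90-fold lower in KO mice by edgeR (adjusted p = 1.2e-10). Col27a1 had 0.970, 3.19, 1.01 and 0.921 RPKM in KO libraries and 4.36, 2.31, 3.42 and 3.02 RPKM in Control libraries, and was 2.07-fold lower by edgeR (adjusted p = 0.0067) with KO library B inside the Control range. Without that library the limma adjusted p of Col1a1 was 0.137, against 0.0399 with all libraries. By limma on the rebuilt reads 5 of 22 were lower in KO mice, where 9.07% of all genes were. Of these, 4 were also called by edgeR, Col1a2 was called by limma alone (adjusted p = 0.0458) and Col5a2 by edgeR alone (limma adjusted p = 0.0526). Leaving out 1 library gave between 2 and 7, and it gave 2 without any 1 of libraries B, C and D of either genotype.

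No deposited table compares 7 d of recovery with 22 °C, so limma on the rebuilt reads gives the only test. In Control mice 6 of 22 collagens were higher at 7 d than at 22 °C and 0 were lower, where 10.3% and 7.06% of all genes were. They were Col1a1, Col1a2, Col5a1, Col6a1, Col6a2 and Col15a1, and at an unadjusted p under 0.05 limma had 3 lower. Col1a1 had 21.9, 37.3, 39.4 and 50.7 RPKM in Control libraries at 7 d, all above the 10.4 to 18.6 RPKM of Control libraries at 22 °C, with a limma log2 difference of 1.48 ± 0.33 (SE, adjusted p = 0.00325). Without Control library B or D of the 7 d group, or D of the 22 °C group, 2 were higher. Col1a1 and Col1a2 passed whichever library was left out, and without library D at 7 d the limma adjusted p was 0.0577 for Col5a1, 0.0875 for Col15a1, 0.138 for Col6a1 and 0.123 for Col6a2. Scaled by library totals, 2 were higher and 2 were lower. In KO mice 4 of 21 were higher at 7 d than at 22 °C (Col11a2, Col27a1, Col12a1 and Col4a5) and 4 were lower (Col8a1, Col20a1, Col23a1 and Col28a1), where 23% and 20.4% of all genes were. Col11a2 had 0.703, 1.01, 0.751 and 0.426 RPKM in KO libraries at 7 d, against 0.254, 0.131, 0.312 and 0.274 RPKM in KO libraries at 22 °C, with a limma log2 difference of 1.49 ± 0.30 (adjusted p = 0.00026). Of the 8 limma fits that left out 1 library, Col4a5 passed in 3 and Col28a1 in 1. Without KO library D at 7 d the limma adjusted p of Col4a5 was 0.167, and without KO library C at 7 d that of Col28a1 was 0.154.

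Between 24 h and 7 d, Col8a1, a network-forming collagen of vessel walls, was lower at 7 d in both genotypes. It had 1.13, 1.39, 0.897 and 0.990 RPKM in KO libraries at 7 d, against 2.30, 2.04, 2.07 and 1.80 RPKM in KO libraries at 24 h, a limma log2 difference of -0.93 ± 0.16 (SE, adjusted p = 0.00175). In Control mice Col8a1 had 1.15, 1.74, 1.49 and 1.31 RPKM at 7 d, against 3.57, 2.45, 2.25 and 2.01 RPKM at 24 h, a limma log2 difference of -0.77 ± 0.16 (adjusted p = 0.00957). Col12a1 was also lower at 7 d than at 24 h in both, by a limma log2 difference of -1.07 ± 0.24 in KO mice and -0.87 ± 0.24 in Control mice (adjusted p = 0.00908 and 0.0379). These were the 2 members that fell in KO mice, where 2.98% of all genes fell and 2.76% rose, and the 2 that fell in Control mice, where 2.11% fell. Col6a6 was the only member of 20 that was higher at 7 d than at 24 h in Control mice (limma adjusted p = 0.0379), where 1.83% of all genes were. Without Control library B at 24 h the limma adjusted p was 0.0985 for Col12a1 and 0.122 for Col6a6 in Control mice. Without Control libraries A and B at 24 h it was 0.134 for Col8a1, and 0 of 20 members passed. In that fit 36 of all 11797 genes were higher at 7 d and 59 were lower, so few genes of any kind passed. The change of the genotype difference between 22 °C and 7 d was higher for Col27a1, Col12a1 and Col11a2 and lower for Col20a1, where 9.53% and 5.29% of all 10591 genes were. Both counts were near these shares. Of the 25 collagens, only Col3a1 and Col28a1 were left out, because their authors' p at 22 °C was over 0.9. Col3a1 differed between genotypes by a log2 fold change of -0.61 at 7 d and -0.008 at 22 °C, and its change was not tested. Col27a1 differed between genotypes by a log2 fold change of -1.05 at 7 d and -3.05 at 22 °C, a difference of 2.0 ± 0.45 (SE, adjusted p = 0.00019 by errors rebuilt from the edgeR p-values). The limma contrast had 4 of 21 higher and 1, Col20a1, lower, where 9.25% and 6.12% of all genes were. Col20a1 passed in 6 of the 16 limma fits that left out 1 library, and its adjusted p reached 0.111 without KO library D at 22 °C.

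Chains that join in one molecule were compared by the ratio of their RPKM. The ratio of Col6a1 to Col6a2, both in type VI filaments, lay between 1.29 and 1.45 over the 6 group means. The ratio of Col1a1 to Col1a2 was 0.567 in Control mice at 7 d, with libraries from 0.487 to 0.632, and 0.414 in Control mice at 22 °C, with libraries from 0.407 to 0.425. In KO mice the same ratio was 0.484 at 7 d, with libraries from 0.324 to 0.588, and 0.403 at 22 °C, with libraries from 0.321 to 0.456. Type I molecules hold more of the first chain than of the second, and the counted ratio need not follow that. The ratio of Col4a1 to Col4a2 was 1.74, 1.76 and 1.82 in KO mice at 22 °C, 24 h and 7 d, against 1.73, 2.10 and 1.95 in Control mice, from group means alone. The ratio of Col5a3 to Col5a1 was 1.52 in KO mice at 24 h, with libraries from 1.32 to 1.89, and 1.02 in Control mice at 24 h, with libraries from 0.879 to 1.20. At 7 d it ran from 1.18 to 3.55 over KO libraries and from 0.873 to 1.08 over Control libraries.

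Genes whose products fold, process or bind collagen were read next to the collagens. Among 18 genes of folding and modification, edgeR called 2 higher and 4 lower in KO mice at 24 h of recovery than in Control mice, where 10.5% and 7.96% of all genes were. Serpinh1, the collagen chaperone HSP47, averaged 142 RPKM in KO mice and 99.6 RPKM in Control mice at 24 h and was 1.59-fold higher (adjusted p = 0.00025), while 6 of 8 fibrillar genes were lower. It was also 1.74-fold higher in KO mice at 7 d (edgeR adjusted p = 9.5e-06). Ppib, a prolyl isomerase, was 1.61-fold higher at 24 h of recovery than at 22 °C in KO mice and 1.43-fold higher in Control mice (edgeR adjusted p = 1.6e-06 and 0.0014), in a list with 2 higher and 3 lower in KO mice and 4 higher and 1 lower in Control mice. Of all genes, 22.1% were higher and 19.8% lower in that comparison in KO mice, and 13.1% and 8.67% in Control mice. At 22 °C 3 of the 18 were higher in KO mice and 4 were lower, where 16.3% and 18% of all genes were, and P4hb, the shared subunit of prolyl 4-hydroxylase, was 1.92-fold higher (edgeR adjusted p = 1.2e-08). At 7 d 3 were higher in KO mice and 0 were lower, where 9.18% and 6.14% of all genes were.

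Of 10 genes of processing and cross-linking, 5 were higher and 0 were lower by edgeR in Control mice at 24 h than at 22 °C, and 2 were higher and 1 was lower in KO mice. The shares over all genes were 13.1% higher and 8.67% lower in Control mice and 22.1% higher and 19.8% lower in KO mice, so the KO count was near its background. Loxl1, a lysyl oxidase that cross-links collagen and elastin, rose in both genotypes. It was 5.75-fold higher in KO mice and 4.29-fold higher in Control mice (edgeR adjusted p = 4.4e-16 and 4.8e-11). Pcolce, which speeds removal of the C-terminal propeptide, averaged 16.1 RPKM in KO mice and 34.0 RPKM in Control mice at 24 h, 1.91-fold lower in KO mice (edgeR adjusted p = 2.5e-05). At 24 h 1 of the 10 was higher and 5 were lower in KO mice than in Control mice, at 22 °C 2 were higher and 0 lower, and at 7 d 2 were higher and 1 lower. Of all genes, 10.5% were higher and 7.96% lower at 24 h, 16.3% and 18% at 22 °C, and 9.18% and 6.14% at 7 d. Lox was higher in KO mice at all 3 times, by 1.92-fold at 22 °C, 1.59-fold at 24 h and 1.53-fold at 7 d (edgeR adjusted p = 2.7e-06, 0.003 and 0.014).

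Of 14 basement membrane partners, 2 were higher and 9 were lower by edgeR in KO mice at 24 h than at 22 °C, and 0 were higher and 2 were lower in Control mice. Of all genes, 22.1% were higher and 19.8% lower in KO mice, and 13.1% and 8.67% in Control mice. Lamb1, a laminin chain, was higher in KO mice than in Control mice by 2.01-fold at 22 °C and by 1.82-fold at 24 h (edgeR adjusted p = 3.4e-09 and 1.9e-06). KO against Control, 4 partners were higher and 3 lower at 22 °C, 3 higher and 3 lower at 24 h, and 3 higher and 1 lower at 7 d. Of 12 fibril-associated genes, 4 were higher and 0 lower in Control mice at 24 h than at 22 °C, and 0 were higher and 6 lower in KO mice. KO against Control, 2 were higher and 0 lower at 22 °C, 0 higher and 4 lower at 24 h, and 0 higher and 2 lower at 7 d. For KO against Control, 16.3% of all genes were higher and 18% lower at 22 °C, 10.5% and 7.96% at 24 h, and 9.18% and 6.14% at 7 d. Dpt, which is also in the fibroblast list, averaged 92.1 RPKM in KO mice and 28.8 RPKM in Control mice at 22 °C, 3.78-fold higher (edgeR adjusted p = 3.9e-11).

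Of 14 genes of TGF-beta signalling, a main inducer of collagen genes in fibroblasts, 5 were higher and 2 lower in KO mice than in Control mice at 22 °C by edgeR, 0 higher and 2 lower at 24 h, and 3 higher and 2 lower at 7 d. In KO mice 0 were higher and 8 lower at 24 h than at 22 °C, and in Control mice 2 were higher and 1 lower. Set against these counts and those of degradation and receptor genes, 16.3% of all genes were higher and 18% lower in KO mice at 22 °C, 10.5% and 7.96% at 24 h, and 9.18% and 6.14% at 7 d. At 24 h against 22 °C the shares were 22.1% and 19.8% in KO mice and 13.1% and 8.67% in Control mice. The 2 of 14 TGF-beta genes lower at 22 °C were near that background. Of the collagenases, inhibitors and other genes of degradation, 5 of 16 were higher and 2 lower in Control mice at 24 h than at 22 °C, and 1 of 15 higher and 4 lower in KO mice. KO against Control, 3 of 15 were higher and 1 lower at 22 °C, 0 of 16 higher and 2 lower at 24 h, and 1 of 15 higher and 0 lower at 7 d. The metalloproteinase inhibitor Timp3 was lower at 24 h than at 22 °C in both genotypes, by 2.41-fold in KO mice and 1.70-fold in Control mice (edgeR adjusted p = 1.5e-17 and 2.3e-06). Of the collagen receptors, 0 of 9 passed in Control mice at 24 h against 22 °C, and 0 of 8 were higher and 2 lower in KO mice. KO against Control, 2 of 9 were higher and 2 lower at 22 °C, 0 of 8 higher and 2 lower at 24 h, and 0 of 9 higher and 2 lower at 7 d. Itga1, an integrin chain that binds type IV collagen, was lower in KO mice at all 3 times, by 1.33-fold to 1.37-fold (edgeR adjusted p from 0.0012 to 0.0044).

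Markers of other cell types were read beside the collagens. For KO against Control, edgeR called 16.3% of all genes higher and 18% lower at 22 °C, 10.5% and 7.96% at 24 h, and 9.18% and 6.14% at 7 d. At 24 h against 22 °C it called 22.1% higher and 19.8% lower in KO mice, and 13.1% and 8.67% in Control mice. The 8 endothelial markers summed to between 157 and 165 RPKM in KO groups and between 159 and 184 RPKM in Control groups. In KO mice the 10 fibroblast markers summed to 229, 145 and 128 RPKM at 22 °C, 24 h and 7 d, against 188, 184 and 154 RPKM in Control mice. Without Dpt, whose means are given above, the KO sum at 22 °C lay below the Control sum in RPKM, which leaves out the authors' normalization factors. With those factors, the median deposited log2 fold change of the 10 fibroblast markers at 22 °C was 0.07. Of the 10 fibroblast markers, 1, Dpt, was higher and 0 lower in KO mice at 22 °C by edgeR, 0 higher and 1 lower at 24 h, and 0 and 0 at 7 d. KO mice at 24 h had 0 higher and 4 lower than KO mice at 22 °C. The 7 mural and smooth muscle markers summed to 120, 106 and 106 RPKM in KO mice at 22 °C, 24 h and 7 d, against 172, 139 and 139 RPKM in Control mice. In KO mice 1, 3 and 2 of the 7 were lower at these times by edgeR and 0 were higher, and at 24 h against 22 °C 3 were lower in KO mice and 1 in Control mice. Of the endothelial markers, edgeR called 0 at 22 °C, 1 lower in KO mice at 24 h and 1 higher at 7 d, and 1 higher at 24 h than at 22 °C in either genotype. The 5 listed Schwann cell markers summed to between 8.57 and 11.3 RPKM in KO groups and between 8.83 and 10.4 RPKM in Control groups, with 1 higher in KO mice at 22 °C and 1 lower at 7 d. Adipocyte markers were higher in KO mice in 5, 4 and 2 of 5 genes at the 3 times, and brown adipocyte markers were lower in 3 of 5 at 22 °C and passed in 0 of 5 at 24 h and at 7 d. At 24 h of recovery against 22 °C, 0 of 5 adipocyte markers were higher and 4 lower in KO mice, and 1 was higher and 4 lower in Control mice, where 14 of 25 collagens rose. Brown adipocyte markers were higher in 4 of 5 in KO mice and 2 of 5 in Control mice, with 0 lower in either. Of the 6 macrophage markers, 1 was higher in KO mice at 22 °C and 0 passed at 24 h or 7 d. Their sums were 35.8, 46.0 and 27.9 RPKM in KO mice at 22 °C, 24 h and 7 d, against 25.2, 82.4 and 29.1 RPKM in Control mice. At 24 h the SD over libraries was 10.8 RPKM in KO mice and 66.0 RPKM in Control mice. No listed marker of these types was at 0. Skeletal muscle markers were carried by single libraries: 3 of them summed to 710 RPKM in KO library A at 7 d and to 824 RPKM in Control library B at 7 d. The other libraries at 7 d reached 16.8 RPKM in KO mice and 6.93 RPKM in Control mice. At 22 °C the same 3 markers summed to 132 RPKM in KO library D and 150 RPKM in Control library A. At 24 h they summed to 112 RPKM in KO library B and 231 RPKM in Control library C. The other libraries at 22 °C and 24 h reached at most 15.3 RPKM. Of the 6 muscle markers, 0 passed the test in any comparison. None of the 5 cartilage and bone markers (Acan, Sox9, Matn3, Ibsp and Bglap) was listed. The part of these cell types in the collagen values was not tested.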

How the data were processed

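Total RNA from brown fat was sequenced after ribosomal RNA removal, per the labels' protocols. Reads were aligned to mm9 with STAR, counted with featureCounts and tested with edgeR, per the submitters' processing notes; versions, and whether counting used strand or shared reads, are not given in the sources used here. Each of the 5 tables deposited by the authors holds the mean RPKM of 2 groups, a log2 fold change with an average log2 CPM, and edgeR's p-value before and after adjustment. A gene is listed where its higher mean reaches 0.5 RPKM, while p-values were adjusted by the authors over 13414 genes. The main call is the authors' adjusted p under 0.05.

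The means are printed to 15 digits. The 4 library totals of each group were inferred from these means, using genes whose mean matched 1 read in 1 library. Each total was met by 12 to 37 such genes. Every mean was then decomposed into whole reads of 4 libraries at these totals. This gave reads for 96.7% of 76711 gene and group values. In a simulation of this rebuild over all 6 groups, 7392 of 7652 values were recovered and 0 were wrong. The simulation used the inferred totals, so it did not test them. Given correct totals, a single solution holds the true reads by construction, so only a choice among several solutions could be wrong. The simulated libraries were drawn with the same spread for every gene, so the spread of the collagens was not simulated. Of 128 collagen values, 9 had several solutions and took the only one with libraries within 5-fold of each other, a limit set after the data were seen, which 0.588% of 24479 well covered single-solution values exceed: Col1a1, Col5a2 and Col6a1 in Control mice at 24 h, Col1a2, Col4a2 and Col6a3 in Control mice at 7 d, Col1a2 in KO mice at 24 h and 7 d, and Col6a3 in KO mice at 7 d.

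limma 3.58.1 (R 4.3.3) was run on log2 CPM of the rebuilt reads with 0.5 reads added, all 6 groups together, with median-of-ratios factors over 10934 genes and Benjamini-Hochberg adjustment over all genes, as an alternative and as the only test for 7 d against 22 °C or 24 h. Over 11358 genes its standard errors had a rank correlation of 0.988 with errors rebuilt from the authors' p-values (Control at 24 h against 22 °C). On simulated reads for Control at 24 h against 22 °C (10934 genes) it recovered 149 of 200 genes changed 2-fold, with 6 false calls, and 65 of 200 changed 1.5-fold, with 7 false calls. edgeR was not rerun, because these reads are rebuilt values. Differences between genotypes in recovery used the deposited log2 fold changes, errors from the authors' p-values, and a normal p adjusted over all genes with an error. An error was rebuilt only where the authors' p was at most 0.9 in both comparisons. Other steps used Python 3.11.15, scipy 1.17.1, numpy 2.4.6 and pandas 2.3.3.

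The members, gene lists and tests were chosen with earlier results of these data known. Named genes are all members, and per list and comparison up to 4 genes with the smallest deposited p. Alternatives were a stricter threshold, a minimum fold, a higher expression minimum, members in all tables, ratios of group means, library totals and leaving out libraries. Promoters are from RefSeq on GRCm38.p6, used for sequence only, not for coordinates of the deposited data.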

Additional observations from a re-analysis of the deposited data

Results flagged for a closer look

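Of 128 collagen values with 4 rebuilt libraries, 7 had a highest or lowest library whose gap to its neighbour, divided by the range of the group, exceeded Dixon's 95% critical value for 4 values, and chance gives about 1 in 20. In KO mice at 7 d, Col27a1 reached 3.19 RPKM in library B, Col16a1 reached 0.868 RPKM in library A, and Col6a6 had 0.244 RPKM in library B. In KO mice at 24 h, Col11a2 reached 0.803 RPKM in library C and Col14a1 reached 2.68 RPKM in library A. Col6a1 had 16.0 RPKM in library C of KO mice at 22 °C, and Col12a1 had 3.63 RPKM in library C of Control mice at 24 h.

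The change over 24 h of recovery, KO minus Control on the log2 scale, differed in 13 collagens at an adjusted p under 0.05. It was positive for Col27a1 (2.08) and Col12a1 (1.79). It was negative for the fibrillar chains Col1a2 (-1.02), Col5a1 (-0.98) and Col5a3 (-1.44), for the type IV chains Col4a1 (-0.97) and Col4a2 (-0.70), and for the type VI chains Col6a1 (-0.99), Col6a2 (-0.98) and Col6a3 (-0.93). It was also negative for Col16a1 (-1.55), Col20a1 (-1.54) and Col18a1 (-1.16). Of the negative members, limma on the rebuilt reads kept only Col20a1 when Control libraries A and B at 24 h were left out. Col1a2, Col4a1, Col4a2 and Col6a3 have no library values in that group and could not be refitted. For the genotype difference at 7 d minus that at 22 °C, the values were 1.53 for Col11a2, 2.0 for Col27a1, 1.68 for Col12a1 and -1.35 for Col20a1.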

How the results depend on the processing

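Of 225 alternative values, 182 stayed near the reported value and 43 moved. Counts of called genes have no direction, so only signed values could change it. The median limma log2 difference of the collagens, KO against Control at 22 °C, was 0.11 with factors. It was -0.14 with library totals, where the median of all genes was -0.25. For Control mice at 7 d against 24 h it was -0.15 with all libraries and 0.22 without Control libraries A and B at 24 h. At an adjusted p under 0.01, KO against Control gave 2 higher at 22 °C, 7 lower at 24 h and 2 lower at 7 d; 24 h against 22 °C gave 0 lower in Control mice and 3 higher and 2 lower in KO mice; the genotype difference in recovery gave 5 lower at 24 h and 0 lower at 7 d. A minimum fold of 1.5 left 2 higher in KO mice at 22 °C. With members listed in all 5 tables, 0 were lower in Control mice at 24 h. By limma on the rebuilt reads, 2 were higher in KO mice at 22 °C, 8 lower at 24 h, 9 higher in Control mice at 24 h than at 22 °C, and 4 higher and 7 lower in the genotype difference at 24 h. Among the members with rebuilt reads, the authors' p gave 2 higher in KO mice at 22 °C and 9 higher in Control mice at 24 h, since fewer genes are counted. Errors from the genotype tables gave 4 higher in the genotype difference at 24 h. Library totals in place of factors gave limma counts of 2 lower in Control mice at 24 h and 2 higher and 2 lower in Control mice at 7 d. The median log2 ratio of the collagens in Control mice at 7 d against 22 °C was 0.33 without centring and 0.45 with it. Without Control libraries A and B at 24 h, limma gave 0 higher in Control mice at 24 h than at 22 °C, 2 lower in KO mice than in Control mice at 24 h, and 2 higher and 1 lower in the genotype difference. The causes were not tested.

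With 1 library left out, limma counts ran from 7 to 9 higher and 0 to 2 lower in Control mice at 24 h, 2 to 8 higher and 0 to 2 lower in Control mice at 7 d, 4 to 5 higher and 3 to 4 lower in KO mice at 24 h, and 3 to 4 higher and 3 to 4 lower in KO mice at 7 d. KO against Control they ran from 2 to 3 higher and 3 to 4 lower at 22 °C, 4 to 11 lower at 24 h and 2 to 7 lower at 7 d, with 0 to 0 higher at both recovery times. The genotype difference in recovery ran from 2 to 4 higher and 2 to 9 lower at 24 h, and from 3 to 4 higher and 0 to 3 lower at 7 d, with 3 lower without library A of either 7 d group and 0 without Control library A, C or D or KO library A or D at 22 °C, or Control library C or KO library D at 7 d. No paired analysis was possible because the rebuilt libraries carry no replicate numbers. The authors' own test could not be rerun without a library. At 4637903 to 12538811 reads a library, members with group means under 1 RPKM had between 6 and 67 reads in a library.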
